A study of Mus musculus with 22 samples.

Results

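Gfap, Vim, S1pr3, Aebp1 and Aldh1a1 are 5 genes of the reactive astrocyte response, followed here through single cells of the mouse hippocampus in a tau transgenic line and its controls. They were chosen by name from a table of 13685 genes because their counts stood higher in astrocytes of old rTg4510 than of old WT mice. That contrast is therefore given as a description, with no test. All 5 were in the table and all 5 were among the 12614 genes counted in every animal.

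The hippocampus of 22 mice, labelled with the strain Fvb/B6, was dissociated and run on Drop-seq, a droplet method that reads the 3′ ends of transcripts with a cell barcode and a molecular barcode. By the sample labels, old mice were 5 WT of 32 to 40 weeks, 4 rTg4510 of 32 to 38 weeks, 3 P301L of 41 to 48 weeks and 3 rTta of 33 weeks, and young mice were 4 WT of 5 to 6 weeks and 3 rTg4510 of 4 to 5 weeks. The series' design text gives a lower age range for the young mice, and it calls WT the double-negative littermates. rTg4510 mice carry both a human tau gene with the P301L change and the tetracycline-controlled activator that switches it on in forebrain neurons; from their names, the P301L and rTta groups carry the tau gene alone and the activator alone. P301L mice were 8 weeks or more older than rTta mice, so age and genotype cannot be told apart in that pair. Whether these groups also differed in their mixed Fvb/B6 background was not tested.

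Astrocytes that meet damaged or diseased tissue build more intermediate filament, change their surface receptors and secreted matrix, and are then called reactive. Gfap and Vim encode the filament proteins glial fibrillary acidic protein and vimentin. S1pr3 encodes a receptor for the lipid sphingosine 1-phosphate, Aebp1 a secreted protein that binds collagen, and Aldh1a1 an enzyme that makes retinoic acid from retinal. In mm10 the genes lie at chr11:102887336-102900912 on the minus strand (Gfap), chr2:13573927-13582826 on the plus strand (Vim), chr13:51408639-51422797 on the plus strand (S1pr3), chr11:5861947-5872088 on the plus strand (Aebp1) and chr19:20492715-20643465 on the plus strand (Aldh1a1). All 5 are annotated as protein-coding.

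Of 30500 barcodes, 27198 with at least 300 counts were kept and clustered without the 5 genes. Cell classes were named from marker genes, and 3298 cells in 2 clusters formed the astrocyte class, whose clusters carried 11 of 11 astrocyte markers. Astrocytes per animal numbered between 43 and 315. Median counts per astrocyte were 672 in P301L and 699 in rTta but 1160 to 1532 in the other groups. Mapt, the tau gene, stood at 1385 to 2077 CPM (counts per 1000000 counts of a cell class in an animal) in excitatory neurons of the 7 rTg4510 mice and at no more than 642 in any other mouse, as the labels have it. The files do not say whether reads of the human transgene were counted under Mapt. P301L replicate 3 and rTta replicate 3 shared 184 barcode sequences, against 6 in the next pair of libraries, and 31 and 29 of their astrocytes carried such a barcode. The log2 differences between P301L and rTta are given also without these barcodes where they are named below; the shares of cells and the Gfap ratios include them. All levels below are CPM within a class of an animal, and because only 3′ ends were counted they are not compared between genes. P301L and rTta libraries differed from the other groups in depth and in which genes were counted at all. Levels of these mice set beside those of the other groups are therefore descriptions only.

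The promoters of Gfap, S1pr3 and Aldh1a1 are shown because Gfap and S1pr3 lay higher, and Aldh1a1 lower, in astrocytes of every P301L than of every rTta mouse. For S1pr3, outside P301L replicate 2, this rested on 1 count per P301L mouse against 0 or 1 per rTta mouse. Each is the 250 bases before a RefSeq start in GRCm38.p6, 5′ to 3′ on the gene's strand, with capitals for a match to the AP-1 motif TGANTCA.
Gfap, chr11:102897201-102897450, minus strand: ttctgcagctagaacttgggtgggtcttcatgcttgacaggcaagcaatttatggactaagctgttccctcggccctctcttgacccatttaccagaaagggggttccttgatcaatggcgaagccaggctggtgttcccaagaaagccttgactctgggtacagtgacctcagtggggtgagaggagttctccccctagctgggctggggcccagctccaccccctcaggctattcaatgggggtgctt
S1pr3, chr13:51408368-51408617, plus strand: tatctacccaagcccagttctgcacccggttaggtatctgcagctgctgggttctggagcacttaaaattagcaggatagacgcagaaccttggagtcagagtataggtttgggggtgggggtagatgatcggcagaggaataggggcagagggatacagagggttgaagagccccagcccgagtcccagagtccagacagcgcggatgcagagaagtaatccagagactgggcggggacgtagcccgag
Aldh1a1, chr19:20492333-20492582, plus strand: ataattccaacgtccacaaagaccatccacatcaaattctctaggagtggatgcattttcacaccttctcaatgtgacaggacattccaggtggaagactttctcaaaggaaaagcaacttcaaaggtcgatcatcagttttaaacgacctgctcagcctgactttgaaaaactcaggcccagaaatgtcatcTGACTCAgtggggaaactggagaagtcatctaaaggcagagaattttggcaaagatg
The AP-1 motif, which Fos and Jun proteins bind, occurred once among the windows of the 5 genes, in Aldh1a1 as TGACTCA, 57 bases before the start shown. Aldh1a1 has another RefSeq start, further downstream, and its window at chr19:20601718-20601967 held no AP-1 motif. The motif TTCNNNGAA of STAT factors, which include the STAT3 of reactive astrocytes, occurred in none of them. Both motifs read the same on either strand, and of 32851 promoter windows of this length 6.75% held the AP-1 motif and 7.02% the STAT motif. A match is a description of letters and not a bound site, and Gfap has another annotated start, further upstream, that this window does not cover.

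In astrocytes of old rTg4510 mice Gfap stood at 3243, 1865, 3706 and 1351 CPM. In old WT mice it stood at 684, 233, 383, 469 and 241 CPM. The lowest rTg4510 animal was above the highest WT animal, and the fitted log2 difference was 2.71 ± 0.55 (SE, 4 against 5 animals). Vim, the filament partner of Gfap, was 658, 345, 1136 and 283 CPM in old rTg4510 against 118, 111, 176, 227 and 195 CPM in old WT astrocytes, a log2 difference of 1.93 ± 0.52. Its groups did not overlap either, and the third rTg4510 animal was the highest for both filament genes.

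S1pr3 was close to absent from old WT astrocytes, with 2, 0, 0, 1 and 2 counts in the 5 animals, or 0 to 11.5 CPM. The 4 old rTg4510 animals gave 57, 12, 49 and 15 counts, or 192, 24.2, 131 and 53.1 CPM, and the fitted log2 difference was 3.98 ± 0.82. Aebp1 stood at 5.75 to 11.9 CPM in old WT and at 74.2, 36.3, 90.8 and 28.3 CPM in old rTg4510 astrocytes, a log2 difference of 2.57 ± 0.61. Aldh1a1 stood at 35.6, 10.1, 31.0, 10.1 and 0 CPM in old WT and at 64.1, 48.4, 174 and 67.2 CPM in old rTg4510 astrocytes, a log2 difference of 2.34 ± 0.48. For all 5 genes the old rTg4510 animals lay above every old WT animal. Among all 5309 genes tested in astrocytes, 1.32% were separated upward and 1.51% downward, and this contrast chose the 5 genes, so nothing is read from that count.

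**Figure D1:**
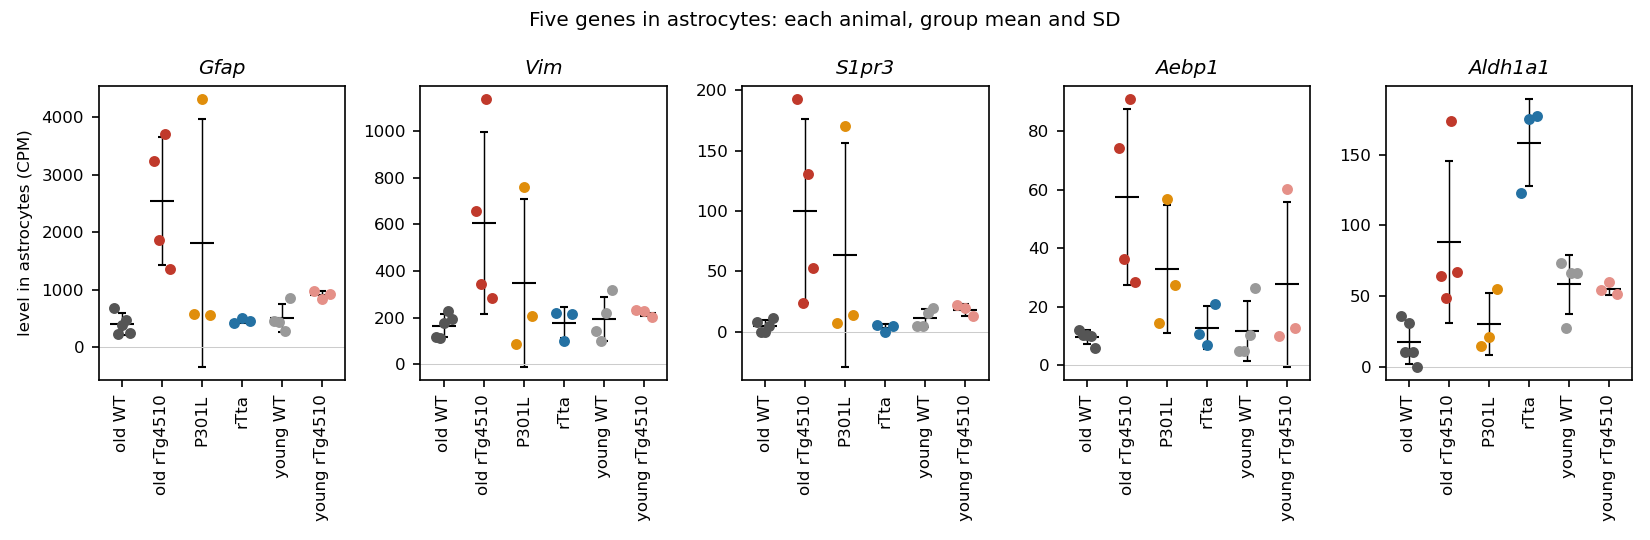
Level of each gene in astrocytes (CPM, vertical axis, a scale per gene) in every animal (points) of the 6 groups, with the group mean and SD as bars. Old rTg4510 animals lie above old WT for all 5 genes, and P301L replicate 2 stands alone at 4315 CPM for Gfap. For Aldh1a1 the rTta animals, between 123 and 177 CPM, lie above all old WT, young and P301L animals, and old rTg4510 replicate 3 lies among them at 174 CPM.

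Old rTg4510 replicate 3 also differed in its cells. It held 545 choroid plexus cells, where the other old rTg4510 animals held none. Its astrocytes carried 882 CPM summed over the 3 measured choroid plexus markers, against 28.3 to 84.7 CPM in the other old rTg4510 animals, and 1264 CPM of the 9 microglia markers, against 385 to 891 CPM. The part of these cells in its high values was not tested. Without this animal the log2 differences of the 5 genes in the old pair remained positive, and over all animals left out in turn they ranged from 2.46 to 2.995 for Gfap, 1.42 to 2.16 for Vim, 3.48 to 4.35 for S1pr3, 2.24 to 2.78 for Aebp1 and 1.76 to 3.05 for Aldh1a1.

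Young rTg4510 and young WT mice, none of which took part in choosing the genes, were compared with edgeR's quasi-likelihood test over all 5309 genes of the astrocyte class. No gene of the 5309 was called at an adjusted p under 0.05 (0% called; 319 genes had an unadjusted p under 0.05, and DESeq2 called 0), and none of the 5 genes was. Gfap stood at 972, 833 and 920 CPM in young rTg4510 and at 454, 438, 279 and 861 CPM in young WT astrocytes. WT replicate 4 lay among the transgenic animals and the other 3 below them. The log2 difference was 0.84 ± 0.62 (SE, adjusted p = 0.826), with a 95% interval from -0.46 to 2.14. Vim differed by 0.26 ± 0.63 (adjusted p = 0.963), at 204 to 231 CPM in young rTg4510 and 99.0 to 318 CPM in young WT.

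S1pr3 and Aebp1 passed the filter on low counts only with the old rTg4510 animals in the fit. For S1pr3, 3 old rTg4510 animals and 1 P301L animal were over the filter's 51.9 CPM and no young animal was, and for Aebp1, 2 old rTg4510, 1 P301L and 1 young rTg4510 animal. S1pr3 gave 11, 2 and 1 counts in the 3 young rTg4510 and 1, 2, 3 and 3 counts in the 4 young WT animals, 12.8 to 22.1 CPM against 4.88 to 19.9 CPM. Its log2 difference was 1.04 ± 1.05 (adjusted p = 0.891), with a 95% interval from -1.13 to 3.20. Aebp1 was 10.04, 60.2 and 12.8 CPM in young rTg4510, where replicate 2 stood apart on 6 counts, and 4.88 to 26.5 CPM in young WT (1.06 ± 0.82, adjusted p = 0.833). Aldh1a1 was nearly equal in the 2 groups, with a mean of 55.2 ± 4.6 CPM (SD, n = 3) in young rTg4510 and 58.1 ± 20.9 CPM (SD, n = 4) in young WT and a log2 difference of 0.02 ± 0.48 (95% interval -0.96 to 0.99). No member's groups were separated in either direction, while 2.26% of all genes were separated upward and 3.52% downward.

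Among the old P301L and rTta mice, Aldh1a1 was the only member called. It fell by 2.58 ± 0.58 on the log2 scale in P301L against rTta astrocytes (edgeR's quasi-likelihood test, adjusted p = 0.0478), where 0.17% of all genes tested, 9 of 5309, were called. The 3 P301L animals gave 2, 4 and 4 counts, or 14.2, 20.7 and 54.9 CPM, and the 3 rTta animals 23, 26 and 34 counts, or 123, 175 and 177 CPM. The groups did not overlap. Every rTta animal was also above every old WT and every young animal, a description across groups of unlike depth. The call is near its threshold. It was lost when any animal but P301L replicate 3 was left out (log2 differences of -2.77 to -2.28) and held without the shared barcodes (-3.06, adjusted p = 0.0078), and over the 17 alternatives with a value the adjusted p ran from 0.00142 to 0.545, with 7 past the threshold.

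Gfap in these mice rested on a single animal. It was 582, 4315 and 562 CPM in P301L against 418, 504 and 454 CPM in rTta astrocytes, so P301L replicate 2 stood above every old rTg4510 animal and the other P301L animals just above rTta. The log2 difference was 2.08 ± 0.68 (adjusted p = 0.381), and without replicate 2 it was 0.33 (adjusted p = 0.973). S1pr3 had the same shape, with 1, 33 and 1 counts in P301L and 1, 0 and 1 in rTta, or 7.10, 170 and 13.7 against 5.35, 0 and 5.22 CPM (4.2 ± 1.19, adjusted p = 0.245). Without P301L replicate 2 its difference was 1.21, and without P301L replicate 1 it was 4.75 (adjusted p = 0.0498), still on the counts of replicate 2. S1pr3 passed the filter only through the old rTg4510 animals, so nothing is read from that p. Vim was 85.2, 760 and 206 CPM in P301L against 219, 101 and 214 CPM in rTta (1.09 ± 0.66, adjusted p = 0.722), and it turned to -0.42 without replicate 2. Aebp1 was 14.2, 56.8 and 27.4 against 10.7, 6.73 and 20.9 CPM (1.44 ± 0.82, adjusted p = 0.705). Without the shared barcodes the differences were 2.08 for Gfap, 4.22 for S1pr3, 1.10 for Vim and 1.54 for Aebp1, and without both replicates 3 they were 2.44, 4.78, 1.43 and 2.02, none of them called.

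Gfap and S1pr3 were thus separated upward and Aldh1a1 downward in P301L against rTta. Outside replicate 2 the S1pr3 separation rests on 1 count per P301L animal against 0 or 1 per rTta animal. S1pr3 was also tested only through the old rTg4510 animals, so nothing is read from its separation. Over all genes tested, 5.54% were separated upward and 7.52% downward. P301L replicate 2 was 41 weeks old, like replicate 3, and had 522 CPM of Mapt in its excitatory neurons, within the range of the mice outside the rTg4510 groups. It was the highest of the 6 P301L and rTta animals for 11 of the 16 other genes that were called higher in old rTg4510 astrocytes, whereas it was highest for 15.1% of all 5309 genes. Replicate 2 was singled out by its Gfap level, and the 16 genes come from these same data and may vary together. The count is a description, and nothing is read from it. Aldh1a1 of replicate 2, at 20.7 CPM, was not raised.

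**Figure D2:**
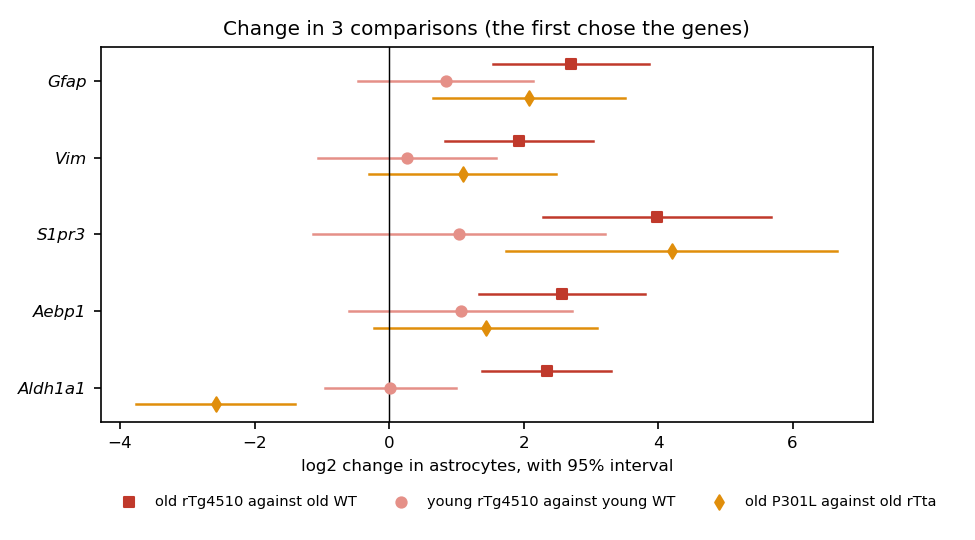
Log2 difference in astrocytes (horizontal axis, 95% interval as lines) of each gene in old rTg4510 against old WT (squares, the contrast that chose the genes), young rTg4510 against young WT (circles) and old P301L against old rTta (diamonds). All circles have intervals across 0, and Aldh1a1 in P301L against rTta lies at -2.58 while the other 4 diamonds lie between 1.09 and 4.2.

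Levels across cell classes placed the 5 genes in different cells. In old WT mice Gfap was highest in astrocytes (402 ± 186 CPM, SD, n = 5), and the range of the next class, microglia at 54.8 ± 44.0 CPM, did not reach it. From microglia down to choroid plexus the ranges of neighbouring classes overlapped. Vim was highest in endothelial cells (1108 ± 582 CPM), then mural cells, the pericytes and smooth muscle of vessels (768 ± 475 CPM, n = 3), with overlapping ranges. Fibroblasts of the 1 animal with enough of them gave 384 CPM, and astrocytes followed at 166 ± 49.8 CPM, above the precursors of oligodendrocytes at 69.9 ± 29.8 CPM with no overlap. In young rTg4510 mice ependymal cells, measured in 1 animal, gave the highest Vim level of any class, 2437 CPM.

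S1pr3 was a mural gene in these data, at 480 ± 277 CPM in old WT (SD, n = 3). Endothelial cells followed at 22.4 ± 16.3 CPM, with no overlap, and astrocytes stood in place 5 of 11 at 4.89 ± 5.01 CPM, within the ranges of their neighbours. Aebp1 was highest in fibroblasts (619 CPM, 1 animal) and choroid plexus (228 CPM, 1 animal). The precursors of oligodendrocytes at 41.3 ± 30.4 CPM, oligodendrocytes at 27.9 ± 17.7 CPM and astrocytes, in place 6 of 11 at 9.63 ± 2.29 CPM, formed an overlapping series with mural cells. Aldh1a1 was highest in endothelial cells (86.4 ± 61.3 CPM), overlapping fibroblasts (65.6 CPM, 1 animal), and astrocytes were again in place 6 of 11 at 17.4 ± 15.2 CPM.

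These orders bear on where the counts of each gene came from. Astrocytes were 11.9% of the cells of old WT and 12.7% of those of old rTg4510 mice. Of all S1pr3 counts, astrocytes held 4.76% in old WT (5 of 105) and 46.7% in old rTg4510 (133 of 285), and mural cells held 51.4% and 18.9%. The mural level itself was 480 CPM in old WT and 498 CPM in old rTg4510. Astrocytes held 53% and 64.8% of Gfap, 11.1% and 36.6% of Vim and 9.38% and 37.7% of Aldh1a1 counts in old WT and old rTg4510. Without old WT replicate 4 the Vim share in old WT was 17.7%. Astrocytes held 2.86% and 7.52% of Aebp1 counts. Of the 1090 Aebp1 counts of old rTg4510 mice, 799 came from choroid plexus cells, all of them in replicate 3, and without that animal astrocytes held 32.4% (48 of 148). Without old WT replicate 4, which gave most of the choroid plexus counts of old WT, they held 7.5% (6 of 80). In a whole-tissue measure of RNA a change in the number of such cells and a change in RNA per cell could not be told apart.

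Outside astrocytes, 16 pairs of a member and a class passed the filter in the young comparison and 15 in the P301L and rTta comparison, and none was called (background 0.053% and 0.238% of all gene and class pairs). Unadjusted p values under 0.05 numbered 6 of 16 and 8 of 15, where 6.9% and 8.19% of all gene and class pairs outside astrocytes had one, and the lowest adjusted p values were 0.285 and 0.222. Vim in endothelial cells, the class where it was highest, differed by -0.16 ± 0.41 in young rTg4510 against young WT and by 0.23 ± 0.44 in P301L against rTta. S1pr3 in mural cells differed by 0.49 ± 0.54 and 0.22 ± 0.49. Of the 6 young pairs with an unadjusted p under 0.05, 5 were Gfap in another class. The other was Vim in excitatory neurons, at 10.9, 31.6 and 17.9 CPM in young rTg4510 and 5.38, 4.25, 8.21 and 7.15 CPM in young WT (1.61 ± 0.66, adjusted p = 0.441). The groups did not overlap. In P301L it was 4.84, 65.9 and 33.0 CPM and in rTta 1.41, 3.06 and 12.2 CPM (2.77 ± 0.84, adjusted p = 0.237), with P301L replicate 1 inside the rTta range. These neurons also carried counts of astrocyte markers. The part of carried-over astrocyte RNA in their Vim counts was not tested, and no neuronal change is read from them. Among the 8 P301L and rTta pairs, Aebp1 in oligodendrocytes stood at 38.8, 19.7 and 44.2 CPM in P301L and at 89.3, 75.4 and 73.8 CPM in rTta (-1.28 ± 0.48, adjusted p = 0.376), lower in P301L where its astrocyte difference was positive. Without the shared barcodes these values were 2.95 for Vim in excitatory neurons, -1.48 for Aebp1 in oligodendrocytes, 0.26 for Vim in endothelial cells and 0.25 for S1pr3 in mural cells.

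Aldh1a1 in endothelial cells stood at 94.8, 83.3 and 74.5 CPM in P301L and at 22.7, 24.5 and 35.0 CPM in rTta mice. The groups did not overlap, with P301L the higher (log2 difference 1.65 ± 0.71, adjusted p = 0.645), on 31 and 9 counts in all. In astrocytes 5.54% of all genes were separated upward and 7.52% downward in this pair. That share was not counted for endothelial cells, so nothing is read from the endothelial separation. The astrocyte level minus the endothelial level, each as log2 of CPM plus 10, was -1.37 ± 0.89 in P301L and 2.17 ± 0.22 in rTta (SD, n = 3 each). This difference of -3.54 had an exact two-sided permutation p of 0.1, the smallest that 3 against 3 animals allow. Groups that separate in opposite directions in the 2 classes can give no other p, so nothing is read from it. Without the shared barcodes the difference was -3.92, and the endothelial log2 difference was 1.66. In excitatory neurons Aldh1a1 was lower in P301L, as in astrocytes, at 2.42, 0 and 6.61 CPM in P301L and 16.9, 18.4 and 28.3 CPM in rTta (-3.16 ± 0.97, adjusted p = 0.222). The P301L levels rest on very few counts. Astrocyte markers summed to 951 to 3753 CPM in these neurons of P301L and 1400 to 2879 CPM in those of rTta. The part of carried-over astrocyte RNA was not tested, and no neuronal change is read from these values.

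**Figure D3:**
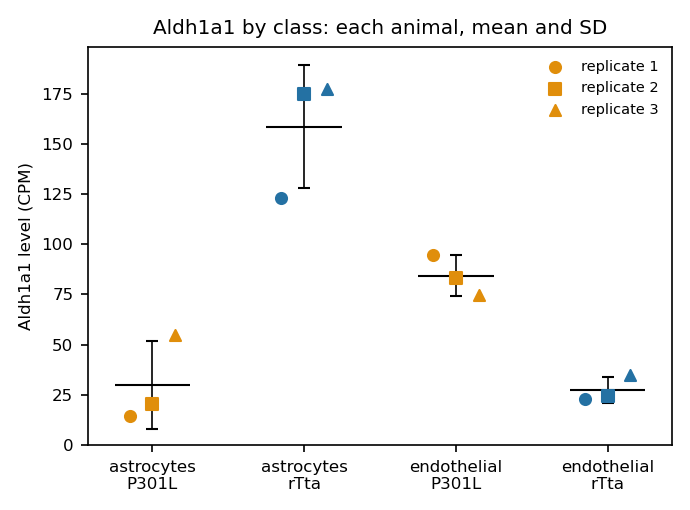
Aldh1a1 level (CPM, vertical axis from 0) in astrocytes and endothelial cells of the 3 P301L and 3 rTta mice, as points with the mean and SD. The rTta mice are higher in astrocytes (123 to 177 against 14.2 to 54.9 CPM) and lower in endothelial cells (22.7 to 35.0 against 74.5 to 94.8 CPM).

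Gfap was also counted in classes that should lack it. In excitatory neurons, which should lack Gfap, it stood at 379, 91.9, 231 and 41.2 CPM in old rTg4510 and at 70.6, 63.6, 8.43, 93.4 and 27.0 CPM in old WT mice. The 11 astrocyte markers summed to 1349 to 3327 and 1057 to 4164 CPM in these neurons, against 26775 to 41431 CPM in astrocytes of the same mice. Per 100 counts of these markers, the median Gfap count in old rTg4510 was 6.82 in astrocytes, 8.38 in excitatory neurons, 8.96 in oligodendrocytes, 10.1 in microglia and 6.73 in endothelial cells. In old WT the medians were 1.04, 1.53, 1.88, 1.44 and 0.84. In both groups the medians were higher in excitatory neurons, oligodendrocytes and microglia than in astrocytes and lower in endothelial cells. The part of carried-over astrocyte RNA in these counts was not tested, and no Gfap expression is read from those classes. P301L replicate 2 had the highest ratio of the P301L and rTta animals in each of the 5 classes, from 10.1 in astrocytes to 20.2 in microglia.

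In young mice the ratio in astrocytes was 2.66, 3.05 and 4.31 Gfap counts per 100 marker counts in rTg4510 and 1.26, 1.25, 0.98 and 2.88 in WT. WT replicate 4 was again inside the transgenic range. In excitatory neurons it was 2.48 to 3.90 in young rTg4510 and 0.73 to 1.58 in young WT, with no overlap.

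**Figure D4:**
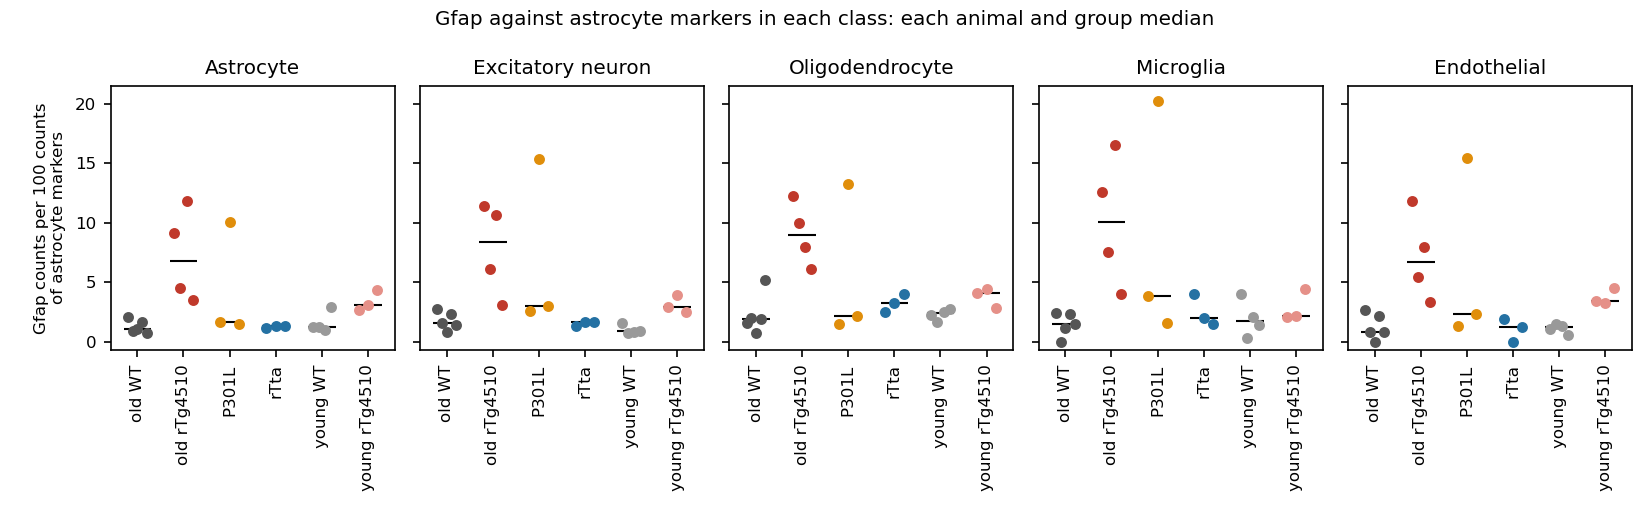
Gfap counts per 100 counts of the 11 astrocyte markers (vertical axis) in each animal (points) and the group median (line) in 5 cell classes. Old rTg4510 medians lie between 6.73 and 10.1 in every class, old WT medians between 0.84 and 1.88, and P301L replicate 2 is the highest P301L point in each class.

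The share of astrocytes with a Gfap molecule was measured after each cell was thinned to 500 counts, and shallower cells were left out (32, 52, 116, 176, 41 and 15 astrocytes in old WT, old rTg4510, P301L, rTta, young WT and young rTg4510). It was 14.4% ± 5.7 over the 5 old WT animals and 56.4% ± 17.6 over the 4 old rTg4510 animals (SD). In young mice it was 26.7% ± 1.4 (n = 3) in rTg4510, from 25.2% to 28.1%, and 15.7% ± 4.3 (n = 4) in WT, from 10.6% to 21.2%. Every young transgenic animal was above every young WT animal. The exact two-sided permutation p was 0.0571, the smallest that 4 against 3 animals allow, and 0.286 after adjustment over the 5 genes. In excitatory neurons, the background class, the share was 3.75% in young rTg4510 and 0.932% in young WT, at median depths of 1637 and 1963 counts. Without thinning the astrocyte shares were 49.8% and 30.5%.

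The share of astrocytes with an Aldh1a1 molecule was 2.08% ± 2.32 in P301L and 6.52% ± 0.70 in rTta (SD, n = 3 each; exact two-sided permutation p = 0.1, adjusted 0.25; 2.70% and 10.9% without thinning). In excitatory neurons of rTta it was 0.724%, at a median of 625 counts against 699 in astrocytes. For S1pr3 the share was 0.366% ± 0.43 over the 5 old WT and 3.76% ± 2.25 over the 4 old rTg4510 animals, and thinning brought the groups to overlap. The share of Vim was 5.92% in old WT and 18.3% in old rTg4510, and that of Aebp1 0.467% and 2.92%.

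Within single animals, Vim was higher in astrocytes with a Gfap molecule than in those without in 20 of 22 animals, at a mean of 354 ± 258 against 130 ± 67 CPM (SD, n = 22). Aldh1a1 was higher in 18 of 22 (93.6 ± 91.7 against 29.4 ± 30.7 CPM). In rTta mice, where Gfap was low, Aldh1a1 was 288 ± 80 CPM in astrocytes with a Gfap molecule and 85.8 ± 11.2 CPM in those without (n = 3). Aebp1 was higher in 15 of 22 animals and S1pr3 in 11 of 22. In old rTg4510 mice, however, Aebp1 was higher in 0 of 4 animals (55.7 ± 30.0 against 89.9 ± 67.5 CPM) and S1pr3 in 2 of 4. The Aebp1 level in their astrocytes without a Gfap molecule rests on 1 to 4 counts per animal. Slc1a2, a glutamate transporter and astrocyte marker, was itself higher in 21 of 22 (12078 ± 2754 against 10016 ± 2541 CPM), and Aldoc, another marker, in 18 of 22. General astrocyte markers thus moved with detection of Gfap too. Cells were not thinned for this split, and deeper cells more often show a Gfap molecule. The parts of depth and of astrocyte RNA content in these differences were not tested.

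The 2 astrocyte clusters differed in depth. Cluster 12 held 2283 cells with a median of 1407 counts, and cluster 13 held 1015 cells with a median of 580 counts. Gfap was 2610 ± 1133 CPM in cluster 12 and 1996 ± 1159 CPM in cluster 13 of old rTg4510 mice (SD over 4 animals), and 419 ± 169 and 337 ± 287 CPM in old WT (5 and 4 animals). Aldh1a1 in rTta was 173 ± 49 CPM in cluster 12 and 116 ± 32 CPM in cluster 13, against 26.6 ± 15.7 and 34.2 ± 35.7 CPM in P301L (n = 3 each). For other genes the order of the group means differed between the clusters, with overlapping ranges in each case. Vim was 256 CPM in young rTg4510 and 188 CPM in young WT in cluster 12, but 66.3 CPM (2 animals) and 241 CPM in cluster 13. Aebp1 was 35.6 CPM in P301L and 9.38 CPM in rTta in cluster 12, but 11.9 and 23.9 CPM in cluster 13. In cluster 13 its animals ran from 0 to 35.6 CPM in P301L and from 19.7 to 27.5 CPM in rTta, on very few counts, so no cluster effect is read from it.

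Lists of related genes, with the 5 members left out, held few calls. Of 35 genes known from reactive astrocytes of injury, 18 were in the table and 5 passed the filter. Of these H2-D1, a class I antigen-presenting gene that resembles other class I genes closely, rose in old rTg4510 astrocytes (1.38 ± 0.30, adjusted p = 0.0215), from 158 ± 82 CPM (SD, n = 5) to 406 ± 142 CPM (n = 4), and the list's median log2 difference was 1.97 against -0.01 over all 5309 genes (background 0.377% called higher). Microglia also express it, and the 9 microglia markers summed to medians of 725 CPM in old rTg4510 and 374 CPM in old WT astrocytes; their part was not tested. H2-D1 stood at 160 and 118 CPM in young rTg4510 and young WT (0.48 ± 0.38, adjusted p = 0.843). In the young and the P301L and rTta comparisons none of the 5 was called, with medians of 0.47 and 1.05. A gene can pass the filter on low counts through the old rTg4510 animals, as S1pr3 did, and list genes that did not pass have no value. Nothing is therefore read from the list's median in the old rTg4510 pair.

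Among 17 tested genes of the extracellular matrix and its regulators, the setting of Aebp1, Col16a1, a collagen gene, rose in P301L against rTta astrocytes (2.84 ± 0.50, adjusted p = 0.00203; background 0.113% called higher). It stood at 270, 207 and 96.0 CPM in P301L and at 37.5, 20.2 and 26.1 CPM in rTta, with no overlap, and its difference was 2.92 without the shared barcodes. In the old rTg4510 pair it was 76.6 ± 11.6 CPM over the 5 WT animals and 160 ± 66 CPM over the 4 transgenic animals (1.14 ± 0.34, adjusted p = 0.175). The list's median was 0.48 in P301L against rTta, with 14 of 17 above 0, and -0.32 in the young comparison. No other gene of this list was called in any of the 3 comparisons.

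None of 7 tested intermediate filament and linker genes was called in the 3 comparisons. Cryab, a filament chaperone, differed by 0.89 ± 0.30 in old rTg4510 against old WT (adjusted p = 0.273) and by 0.59 ± 0.36 in the young pair, and Macf1, a cytoskeletal linker, by -0.17 ± 0.26 and -0.77 ± 0.31. Nor was any of 4 genes of sphingosine 1-phosphate handling called. S1pr1, the receptor best known in astrocytes and endothelium, differed by -0.52 ± 0.24 in the old rTg4510 pair (adjusted p = 0.522), opposite in sign to S1pr3, and Mfsd2a, a lipid transporter gene, by -0.18 ± 0.45. No tested gene of the retinoid list was called either. Dhrs3, which encodes an enzyme that reduces retinal, differed by 0.05 ± 0.39 in P301L against rTta, where Aldh1a1 fell.

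None of 9 tested genes of the STAT3 pathway list was called. Its medians were 0.43 in the young pair, 0.20 in P301L against rTta and 0.41 in the old rTg4510 pair, and its 2 most abundant members, Jun and Fos, encode AP-1 proteins. Fos was 651 ± 416 CPM in young rTg4510 (n = 3) and 309 ± 217 CPM in young WT (n = 4), a log2 difference of 0.98 ± 0.54 (adjusted p = 0.769). Jun differed by 0.43 ± 0.29 there and by -0.11 ± 0.34 in P301L against rTta. All 20 homeostatic astrocyte genes were tested and none was called, with medians of -0.24, 0.22 and 0.18 in the same order. Slc1a2 differed by 0.51 ± 0.22 and Clu, an apolipoprotein gene, by 0.49 ± 0.21 in the old rTg4510 pair (adjusted p = 0.506 for each).

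Over the 42 means of 7 classes in 6 groups, which share libraries and depth, the 3 genes most like each member among 11982 were as follows, by Pearson's r of log2 of CPM plus 10. Gfap was closest to Aqp4 (0.83), Mt1 (0.83) and Chi3l1 (0.83), and Vim to Id3 (0.95), Osmr (0.94) and Wwtr1 (0.94). S1pr3 was closest to Notch3 (0.94), Crispld2 (0.94) and Atp13a5 (0.94), which follow mural cells. Aebp1 was closest to Olig1 (0.84), Olig2 (0.84) and Nkx2-2 (0.83), genes of the oligodendrocyte lineage, and Aldh1a1 to Id1 (0.77), Id3 (0.76) and Slc3a2 (0.76). Fibroblasts and choroid plexus, where Aebp1 was highest, were not among the 7 classes.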

How the data were processed

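Drop-seq counts of 22 mice were analysed. The deposited values were unnormalised counts per gene and cell barcode, which the authors made with bcl2fastq 2.18.0.12 and STAR, given as 2.2, on mm10, per the submitters' processing notes. Total counts per animal ran from 780831 to 6039656. The table held 270 genes at 0 in all P301L and rTta animals but counted in all others, and 801 with the opposite pattern, so only the 12614 genes counted in every animal were used. Barcodes with at least 300 counts were clustered (scanpy 1.11.5, 2000 variable genes, 40 components, 15 neighbours, resolution 1) without the 5 members. A cluster was named from at least 3 markers at 2-fold; 2058 cells (7.57%) stayed unnamed. No doublet caller was run, and 82 astrocytes with more marker counts of another class were left out in an alternative.

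Counts were summed per animal and class (at least 20 cells) and tested with edgeR 4.0.16 in R 4.3.3 (quasi-likelihood, trimmed-mean scaling, filterByExpr, all 6 groups in a fit, Benjamini-Hochberg adjustment over all genes of the class). DESeq2 1.42.0 was an alternative. Where nothing states separate litters or days, p-values measure the spread between these animals. In data simulated from these animals, 74.0% of genes with a log2 change of 2 and 22.2% of those with 1 were called for the young pair, and 75% and 16.1% for P301L against rTta. The changed genes were all over 20 CPM, and each had the spread typical of genes of its level. The members' own spread was not used, so these percentages do not give the chance of calling the members. Shares were compared by exact permutation after thinning to 500 counts. Shares and CPM from few counts carry counting error besides the spread given. Members, lists and tests were chosen with earlier results of these data known. Beside the members, the text names for each list the genes called in any comparison, else the 2 most abundant, and for each member the 3 genes of highest r; single other genes were chosen after their values were seen, and 1 gene that the rule names is not reported here. Sequences are RefSeq's, and all 5 members matched.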

Additional observations from a re-analysis of the deposited data

Results flagged for a closer look

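Groups of 4 or 5 animals were checked for a value that stood apart by Dixon's criterion, and the 3 values past it were all of Aldh1a1. The groups of 3 animals, P301L, rTta and young rTg4510, were not checked. In astrocytes of old rTg4510 mice the highest animal, replicate 3, was at 173.7 CPM, far from the other 3 at 48.4 to 67.2 CPM. The same animal had the highest share of astrocytes with an Aldh1a1 molecule, 6.49%. In young WT mice the lowest animal, replicate 2, was at 27.22 CPM, against 66.0 to 73.2 CPM in the others. These are 3 values among 30 groups checked, and chance flags about 1 group in 20.

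The change of Aldh1a1 between P301L and rTta mice had opposite directions in 2 cell classes: its log2 difference was 1.649 in endothelial cells and -2.58 in astrocytes. The endothelial difference was not called (edgeR's quasi-likelihood test, adjusted p = 0.645), and the share of all endothelial genes that separated was not counted. It was flagged because the groups did not overlap in either class. That choice fixed the exact permutation p of the difference between classes at 0.1, the smallest possible for 3 against 3 animals, so nothing is read from it.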

How the results depend on the processing

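No paired analysis was possible because the labels give no replicate numbers that link animals across groups. Without a single animal, the number of genes called in astrocytes ran from 0 to 12 in the young comparison, from 3 to 27 in P301L against rTta and from 3 to 24 in the old rTg4510 comparison. In the young comparison 12 genes were called without rTg4510 replicate 1, and 0 under each of the other 17 alternatives. For P301L against rTta the count was 9 and became 14 with DESeq2, 15 with no low-count filter, 5 in astrocyte cluster 12, 0 in cluster 13 and 23 without the shared barcodes. In the old rTg4510 comparison it was 22 and became 48 with no low-count filter, 45 with a term for the range of animal numbers and 0 in cluster 13, where 1301 genes were tested. That term could not be estimated for P301L against rTta, whose animals lie in a single range. The cause of the other moves was not tested.

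The log2 difference of Aldh1a1 in P301L against rTta was negative in every alternative run and lost its call with DESeq2's size factors (-2.57), barcodes of at least 500 counts (-2.53), at least 50 cells (-2.60), cluster 12 alone (-2.92) and without both replicates 3 (-3.01), and without single animals it ran from -3.06 to -2.28. S1pr3 in the same pair ran from 1.21 to 4.75 without single animals and was 4.78 without both replicates 3, and Vim from -0.42 to 1.56 (its share from -0.58 to 8.98 percentage points). In the young comparison Vim was -1.78 in cluster 13. Aldh1a1 there had a difference near 0 that turned to -0.016 with DESeq2 and -0.10 in cluster 12, ran from -0.31 to 0.18 without single animals, and its share difference of -0.18 percentage points became 0.53 unthinned, 0.0687 without mixed cells and -0.626 to 0.066 without single animals. Restricting to a cluster, dropping the shared barcodes, dropping both replicates 3 and dropping animals from the astrocyte shares of all counts were chosen after seeing the data. Depth limits S1pr3, Aebp1 and Aldh1a1, which rest on 0 to 65 counts per animal in astrocytes.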

Other observations

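Col16a1 aside, the genes called in P301L against rTta astrocytes together with Aldh1a1 were Abhd1, Mamdc2, Zfp949, Wdfy1 and Gabra2, which rose, and Rps2 and Pttg1, which fell. Rps2 has many near-identical copies in the genome, so its counts are uncertain. None of them was called in old rTg4510 against old WT astrocytes. Their log2 differences in P301L against rTta ran from -4.94 (Rps2) to 6.59 (Mamdc2). The part of the mixed Fvb/B6 background in these differences, and in that of Aldh1a1, was not tested.

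The genes called higher in old rTg4510 astrocytes beside the members included H2-K1 (log2 difference 1.45 ± 0.26, SE, adjusted p = 0.00291), H2-D1 and B2m (1.26 ± 0.29, adjusted p = 0.0338). Irgm1, an interferon-induced GTPase gene, differed by 2.61 ± 0.45 (adjusted p = 0.00291) and Ifitm3 by 2.05 ± 0.42 (adjusted p = 0.0215). Chi3l1, among the genes most like Gfap across classes, differed by 2.04 ± 0.41 (adjusted p = 0.0215). These genes were chosen after their values were seen. H2-K1 and H2-D1 resemble each other closely, and reads may be split between them. The 9 microglia markers summed to 385 to 1264 CPM (median 725) in the same old rTg4510 astrocytes and to 257 to 548 CPM (median 374) in those of old WT, none of the 9 at 0 in either group, and their part in these differences was not tested. All these p-values are from edgeR's quasi-likelihood test.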
